A study of Mus musculus with 4 samples.

Results

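Oxidative phosphorylation genes are described here in splenic natural killer (NK) cells, lymphocytes of the innate immune system that recognise and lyse tumour cells and infected cells. The genes were chosen by symbol alone: protein-coding genes of the mouse GENCODE annotation beginning with Nduf, Uqcr, Atp5, Cox4i, Cox5, Cox6, Cox7, Cox8 or mt-, plus Sdha, Sdhb, Sdhc, Sdhd and Cycs. This gave 107 of the 35275 gene identifiers in the count table, 13 encoded by mitochondrial DNA and 94 by nuclear chromosomes. The nuclear genes comprise 36 subunits and 8 assembly factors of complex I, 4 subunits of complex II, 8 of complex III, 20 genes of complex IV with its tissue isoforms, 17 of complex V, and cytochrome c. A count was present in at least 1 library for 105 of them. Ndufa4l2 and Cox8c had 0 counts in all 4 libraries, which allows up to 0.142 to 0.189 CPM (counts scaled to library size) depending on the library.

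Bulk RNA was sequenced from CD3-negative, NK1.1-positive cells sorted from the spleen after enrichment with a kit. The 4 groups had 1 library each: Irf4-/- mice injected intravenously with B16-F10 cells, a mouse melanoma line, 20 days earlier; Irf4-/- mice that were not injected (control); wild-type C57BL/6 (WT) mice injected in the same way; and WT mice that were not injected. The labels give no age or sex, no strain background for the Irf4-/- mice, no site of the deletion and no number of animals behind a library. No group had a replicate, so a difference between 2 libraries compares those libraries and not the conditions, and the 95% intervals given with log2 ratios cover counting error only.

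Oxidative phosphorylation takes electrons from NADH at complex I and from succinate at complex II, passes them through ubiquinone, complex III and cytochrome c to complex IV, where oxygen is reduced, and uses the proton gradient so built to make ATP at complex V. Complexes I, III, IV and V are each assembled from subunits of both genomes, whereas complex II is encoded by nuclear genes only. In lymphocytes, resting and activated states are known to draw on respiration and glycolysis to different degrees. The heavy strand of mitochondrial DNA is transcribed as long precursors that hold nearly all of its messages, and mt-Nd6 is the message of the light strand.

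Total counts lay between 15878159 and 21104881 per library. Irf4, the targeted transcription factor gene (chromosome 13, 30749226 to 30766976 in GRCm38), had 236 counts in the library labelled Irf4-/- injected and 188 in that labelled Irf4-/- control, against 57 in WT injected and 93 in WT control. At 12.7 and 11.8 CPM against 3.07 and 4.395 CPM it was higher in both libraries labelled Irf4-/-, which goes against a loss of the whole transcript. Counts over the whole gene cannot show which part was deleted, and every genotype direction below depends on these labels. NK cell markers were abundant throughout, for example Ncr1 at 1462, 1279, 1088 and 1196 CPM and Klrb1c, which encodes NK1.1, at 1201, 1085, 1418 and 1181 CPM in the libraries labelled Irf4-/- injected and Irf4-/- control and in WT injected and WT control. Marker lists of other cells were low and unequal in the same order of libraries. The 8 B cell markers summed to 48.2, 70.2, 28.5 and 66.7 CPM, and the 11 monocyte and macrophage markers to 72.5, 60.01, 89.8 and 38.9 CPM. The 8 erythroid markers summed to 109.4, 47.1, 20.1 and 38.9 CPM, and the 8 T cell markers to between 47.8 and 55.8 CPM. The neutrophil list stayed below 1 CPM in sum, with 3 to 6 of its 8 markers at 0. Their part in the differences below was not tested, and in bulk RNA fewer cells of a type and less RNA per cell cannot be told apart.

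Several mitochondrial messages share their sequence with nuclear DNA, which has to be known before their counts are read. Of the 50-base windows of mt-Co2, mt-Co3, mt-Atp6, mt-Nd3 and mt-Nd4l, between 98.0% and 100% also occur in another annotated transcript, chiefly pseudogenes on the minus strand of chromosome 1 between 24611535 and 24616197 (GRCm38). For mt-Nd4 the share was 62.2% and for mt-Co1 51.1%, whereas it was 8.19% for mt-Nd2, 7.61% for mt-Nd5 and 0 for mt-Nd1, mt-Nd6, mt-Cytb and mt-Atp8. Transcripts alone were searched, so copies outside annotated genes are not counted. The annotated transcript of Gm28661 matched mt-Co2 at all 681 aligned bases, Gm28437 matched mt-Co3 at all 783, Gm10925 matched mt-Atp6 at all 678 and Gm10222 matched mt-Nd4l at all 294. Gm28438 differed from mt-Nd3 at 1 of 345 bases, T3C, counted from 1 at the first base of mt-Nd3. The first 60 bases of 2 such pairs are shown so that each message can be compared with its copy, identical in the mt-Co2 pair and different at 1 base in the mt-Nd3 pair. The sequences are from the GENCODE transcripts of GRCm38, and capitals mark the base that differs in the mt-Nd3 pair. The mt-Co2 window lies at chrM:7013-7072 on the plus strand, its copy at chr1:24615506-24615565 on the minus strand, the mt-Nd3 window at chrM:9459-9518 on the plus strand and its copy at chr1:24613060-24613119 on the minus strand.
mt-Co2: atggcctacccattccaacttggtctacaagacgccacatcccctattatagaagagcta
Gm28661: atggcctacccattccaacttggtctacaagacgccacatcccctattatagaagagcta
mt-Nd3: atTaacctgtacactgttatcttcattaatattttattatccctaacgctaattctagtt
Gm28438: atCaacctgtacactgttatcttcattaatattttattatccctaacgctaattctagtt

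The counts of these 5 messages were low, and those of mt-Co2, mt-Co3 and mt-Atp6 were lowest in WT control. On the per-length scale of the deposited FPKM, mt-Co2, which encodes the copper-bearing subunit 2 of complex IV, stood at 38.0 in the library labelled Irf4-/- injected and 42.7 in that labelled Irf4-/- control, against 39.0 in WT injected and 14.3 in WT control. The catalytic subunit gene of the same complex, mt-Co1, had 2987 and 2947 FPKM in the libraries labelled Irf4-/- injected and Irf4-/- control, against 3654 in WT injected and 2787 in WT control. These are subunits of 1 complex read from the same precursor, and their deposited levels differ by far more than any difference between libraries. In CPM, mt-Co2 had 26.0 and 29.2 in the libraries labelled Irf4-/- injected and Irf4-/- control, against 26.8 in WT injected and 9.78 in WT control. mt-Co3 had 16.8 and 18.9 CPM in those labelled Irf4-/- injected and Irf4-/- control, against 18.5 CPM in WT injected and 5.06 CPM in WT control. For mt-Atp6, the proton channel subunit of ATP synthase, the values were 17.9 and 15.0 CPM against 18.8 and 6.14 CPM. The other libraries thus lay close together and WT control lay below them. The 7 annotated chromosome 1 copies were also lowest in WT control, with summed levels of 111 CPM in the library labelled Irf4-/- injected and 114 CPM in that labelled Irf4-/- control, against 126 CPM in WT injected and 37.1 CPM in WT control. Their summed log2 ratio was 1.62 (1.495 to 1.74) for the library labelled Irf4-/- control against WT control and 1.76 (1.65 to 1.88) for WT injected against WT control. It was -0.03 (-0.13 to 0.06) for the library labelled Irf4-/- injected against that labelled Irf4-/- control. Counts of mitochondrial messages and of copies are therefore uncertain for these genes, and how reads with more than 1 place were assigned is not given in the sources used here.

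**Figure D1:**
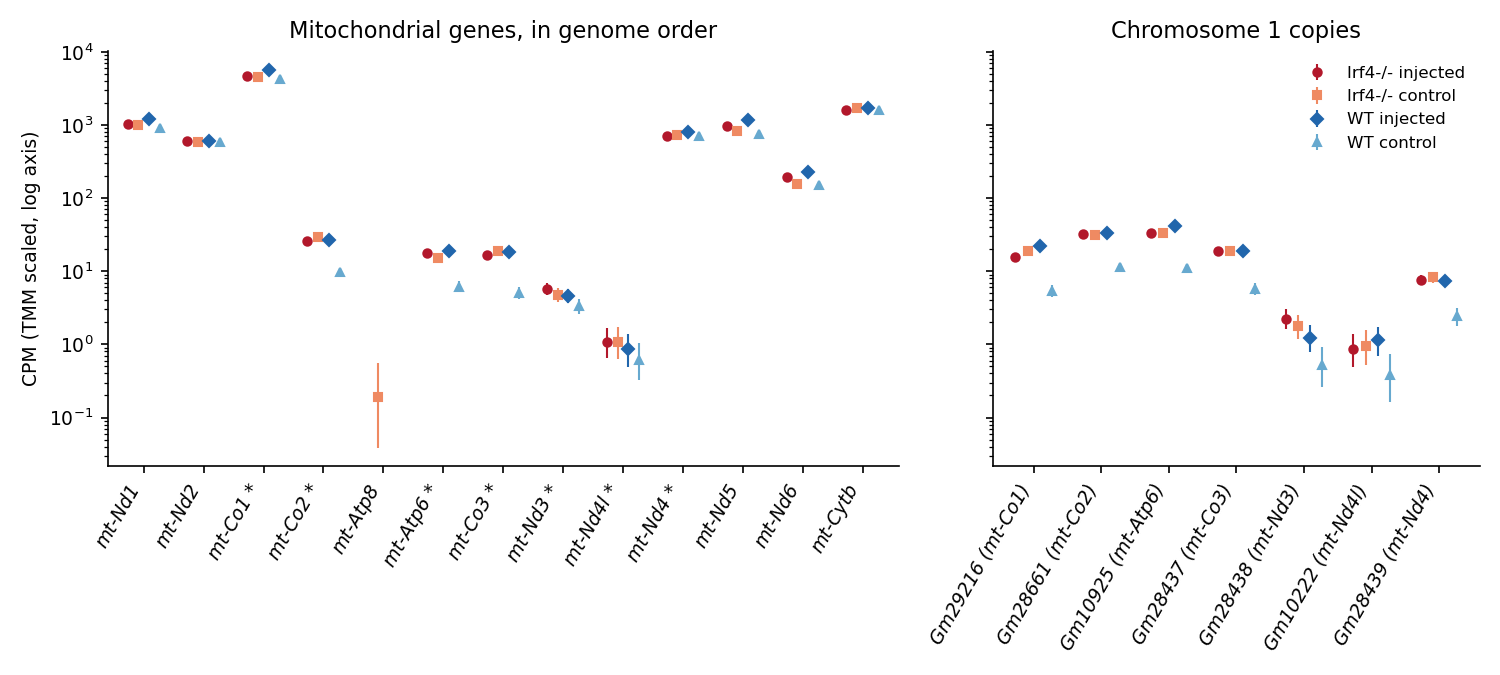
CPM on a log axis for the 13 mitochondrial genes in genome order (left; * marks genes with at least 50% of their 50-base windows in another annotated transcript) and for their chromosome 1 copies (right), 1 symbol per library with its exact 95% counting interval. Values of 0, in 3 libraries for mt-Atp8, are not drawn; for mt-Co2, mt-Atp6, mt-Co3 and all 7 copies WT control lies below the other 3 libraries.

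Over the 4 libraries, the share of counts held by mitochondrial messages ranged more widely than that held by nuclear ones. This did not hold in every pair. Within the Irf4-/- label the log2 ratio of summed counts was 0.02 for mitochondrial messages and 0.04 for nuclear ones. The 13 mt- genes held 0.976% of all counts in the library labelled Irf4-/- injected and 0.962% in that labelled Irf4-/- control, against 1.14% in WT injected and 0.905% in WT control. The 94 nuclear genes held 0.674% and 0.655% in the libraries labelled Irf4-/- injected and Irf4-/- control, against 0.635% in WT injected and 0.655% in WT control. WT injected was therefore the highest library for mitochondrial counts and the lowest for nuclear ones. The ratio of mitochondrial to nuclear counts, which does not depend on library scaling, was 1.45 and 1.47 in the libraries labelled Irf4-/- injected and Irf4-/- control, against 1.80 in WT injected and 1.38 in WT control. On the log2 scale the difference between both sets was -0.31 (-0.32 to -0.30) for the library labelled Irf4-/- injected against WT injected and 0.38 (0.36 to 0.39) for WT injected against WT control. These comparisons share the WT injected library. It was 0.09 (0.07 to 0.10) for the library labelled Irf4-/- control against WT control and -0.02 (-0.04 to -0.004) for the library labelled Irf4-/- injected against that labelled Irf4-/- control. The 6 mt- genes with little or no sequence shared with other annotated transcripts were also set against the nuclear genes. The same 4 differences were then -0.25 (-0.27 to -0.23) and 0.33 (0.31 to 0.35), followed by 0.09 and -0.01 (-0.03 to 0.01).

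**Figure D2:**
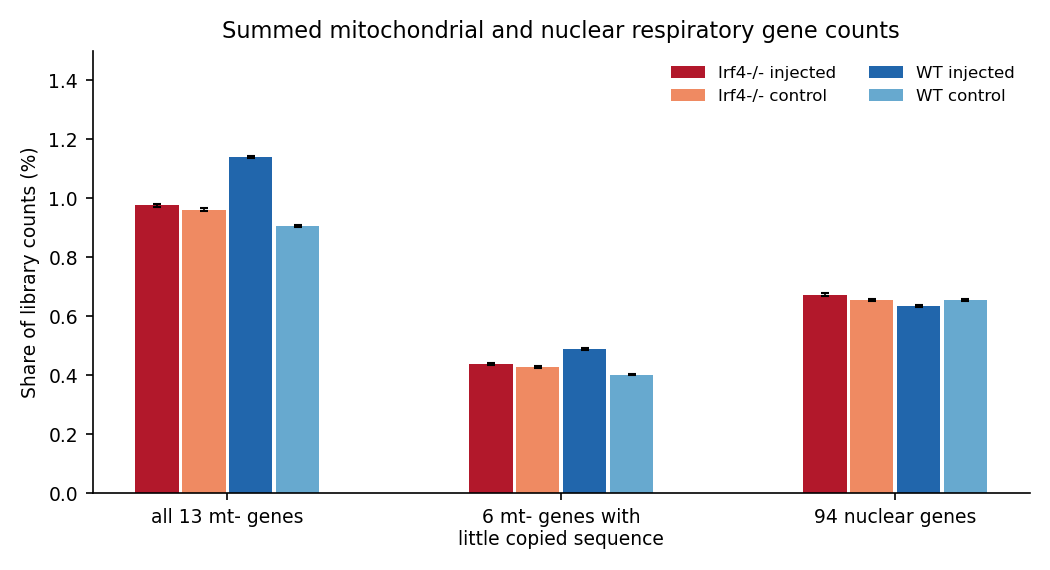
Share of each library's counts, in percent, held by all 13 mt- genes, by the 6 mt- genes with under 50% copied windows and by the 94 nuclear genes, with exact 95% binomial intervals that cover counting error only. WT injected has the tallest bar in both mitochondrial sets, 1.14% and 0.489%, and the shortest in the nuclear set, 0.635%.

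Cytosolic ribosomal protein genes are another abundant set, and their sums differed in the same direction as the mitochondrial ones in 3 of the 4 pairs. The 92 genes held 5.05% of counts in the library labelled Irf4-/- injected and 4.64% in that labelled Irf4-/- control, against 6.42% in WT injected and 5.18% in WT control. Their summed log2 ratio was -0.35 for the library labelled Irf4-/- injected against WT injected and 0.32 for WT injected against WT control, where the mitochondrial sums were -0.23 (-0.24 to -0.22) and 0.34 (0.33 to 0.35). Within the Irf4-/- label the ribosomal sum was 0.13 and the mitochondrial one 0.02. For the library labelled Irf4-/- control against WT control the directions were opposite, at -0.16 for the ribosomal sum and 0.09 for the mitochondrial one. The part of the ribosomal protein genes in the mitochondrial difference was not tested.

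The mitochondrial genes with little copied sequence did not move alike. mt-Nd5, a proton-pumping membrane subunit of complex I, had 954 CPM in the library labelled Irf4-/- injected and 819 CPM in that labelled Irf4-/- control, against 1173 CPM in WT injected and 749 CPM in WT control. The log2 ratio was -0.30 (-0.33 to -0.27) for the library labelled Irf4-/- injected against WT injected, 0.65 (0.62 to 0.68) for WT injected against WT control and 0.22 (0.19 to 0.25) for the library labelled Irf4-/- injected against that labelled Irf4-/- control. Both injected libraries were thus higher than their control, by more in WT. mt-Nd6, the light-strand subunit of complex I, had 192 and 157 CPM in the libraries labelled Irf4-/- injected and Irf4-/- control, against 225 and 151 CPM in WT injected and WT control. Its ratio was 0.58 (0.52 to 0.65) for WT injected against WT control and 0.29 (0.22 to 0.37) for the library labelled Irf4-/- injected against that labelled Irf4-/- control. Whether counting used strand is not given in the sources used here, so RNA of the opposite strand over mt-Nd6 cannot be told apart from it. mt-Nd1, another membrane subunit of complex I, had 1019 and 990 CPM in the libraries labelled Irf4-/- injected and Irf4-/- control, against 1222 and 903 CPM in WT injected and WT control, a ratio of 0.44 (0.41 to 0.46) for WT injected against WT control.

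Differences were smaller in mt-Nd2 and mt-Cytb. mt-Nd2, also of complex I, lay between 586 and 608 CPM in all 4 libraries, and its ratios lay between 0.01 and 0.04. mt-Cytb, the mitochondrial subunit of complex III, had 1599 and 1701 CPM in the libraries labelled Irf4-/- injected and Irf4-/- control, against 1694 and 1621 CPM in WT injected and WT control. Of the partly copied genes, mt-Co1 had 4613 and 4543 CPM in the libraries labelled Irf4-/- injected and Irf4-/- control, against 5674 and 4295 CPM in WT injected and WT control. WT injected was thus highest, with ratios of -0.30 (-0.31 to -0.29) for the library labelled Irf4-/- injected against WT injected and 0.40 (0.39 to 0.41) for WT injected against WT control. mt-Co1 made up 47.3% to 49.5% of mitochondrial counts, so the sums above follow it closely. mt-Nd4 had 701 and 721 CPM in the libraries labelled Irf4-/- injected and Irf4-/- control, against 790 and 700 CPM in WT injected and WT control. mt-Nd3, mt-Nd4l and mt-Atp8 were too thinly counted for a comparison, with 70 to 108, 13 to 20 and 0 to 3 counts per library. mt-Atp8 had a count only in the library labelled Irf4-/- control, 3 in all.

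Across all 4 libraries, an additive model of genotype and injection (edgeR's quasi-likelihood test, Benjamini-Hochberg adjusted over 11998 genes) was the one test the design allowed. Its spread is the departure of these libraries from additivity, and that may be technical in origin. None of the 101 members tested passed an adjusted p of 0.05 for genotype or for injection. Over all genes 1.22% rose and 0.258% fell with the genotype label, and 0.333% rose and 0.392% fell with injection. Before adjustment, 6 members were higher and 2 lower at p under 0.05 with genotype, where 10.4% of all genes were past it, and 4 were higher and 1 lower with injection, where 14.2% were. Both shares lie below those of all genes. DESeq2 and limma-voom also called 0 members. For injection the smallest adjusted p was that of mt-Nd6, at 0.44 on the log2 scale (SE 0.107, edgeR adjusted p 0.0985), followed by mt-Atp6 at 0.91 (SE 0.271, edgeR adjusted p 0.167), Cox7a2l at 0.35 (SE 0.106, edgeR adjusted p 0.173) and mt-Nd5 at 0.43 (SE 0.136, edgeR adjusted p 0.184). For genotype it was that of Cox7a2l, at -0.30 (SE 0.106, edgeR adjusted p 0.309), and the largest genotype effect, 0.80 for mt-Co3, had an SE of 0.363 and an edgeR adjusted p of 0.481. Other settings gave other calls. With no filter on low counts mt-Co2 and mt-Co3 rose with genotype, where 319 of 21484 genes rose and 163 fell, and these and mt-Atp6, mt-Nd5 and mt-Nd6 rose with injection, where 305 rose and 299 fell. The same members and Cox7a2l rose where TMM scaling was computed over all gene identifiers with the filter kept, and 0 members passed with a filter at 5 CPM. The cause of these changes was not tested.

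Between pairs of libraries, members with a pair mean of 5 CPM or more were counted when their log2 ratio was past 0.32 in size (25% higher or 20% lower) and its counting interval excluded 0. This is a rule of size and not a test. For the library labelled Irf4-/- injected against WT injected, 9 of 96 members were higher and 1 was lower, where 11.8% and 10.6% of all genes were. For the library labelled Irf4-/- control against WT control, 4 of 96 were higher and 2 lower, where 5.71% and 3.59% of all genes were. For WT injected against WT control, 8 of 95 were higher and 7 lower, where 12.9% and 12.7% of all genes were. For the library labelled Irf4-/- injected against that labelled Irf4-/- control, 1 of 97 was higher and 2 were lower, where 5.84% and 5.55% of all genes were. In each pair and direction the share of members past this size was below that of all genes. Past 2-fold there were 3, mt-Co2, mt-Co3 and mt-Atp6, all with copies and all against WT control, at 1.57, 1.88 and 1.27 for the library labelled Irf4-/- control and 1.44, 1.85 and 1.59 for WT injected. Over all genes 2-fold higher were 0.725% for the library labelled Irf4-/- control against WT control, 1.11% for WT injected against WT control, 1.12% for the library labelled Irf4-/- injected against WT injected and 0.134% within the Irf4-/- label. No member was 2-fold lower, where in the same order of pairs 0.0828%, 0.789%, 0.661% and 0.216% of all genes were.

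Nuclear members leaned together by small amounts, except between the control libraries. The comparisons within the injected pair and within WT share the WT injected library. In the library labelled Irf4-/- injected against WT injected their median log2 ratio was 0.14, against 0.00 over all genes, and 40 of 85 had a counting interval above 0 and 9 below it, where 27.2% and 27.6% of all genes did. For WT injected against WT control it was -0.05, and 14 of 85 intervals lay above 0 and 28 below, against 30.2% and 30.8% over all genes. For the library labelled Irf4-/- control against WT control the nuclear median was 0.01, and 15 of 86 intervals lay above 0 and 18 below, against 18.0% and 18.7% over all genes. For the library labelled Irf4-/- injected against that labelled Irf4-/- control it was 0.05, and 22 of 86 intervals lay above 0 and 6 below, against 20.4% and 20.8% over all genes.

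**Figure D3:**
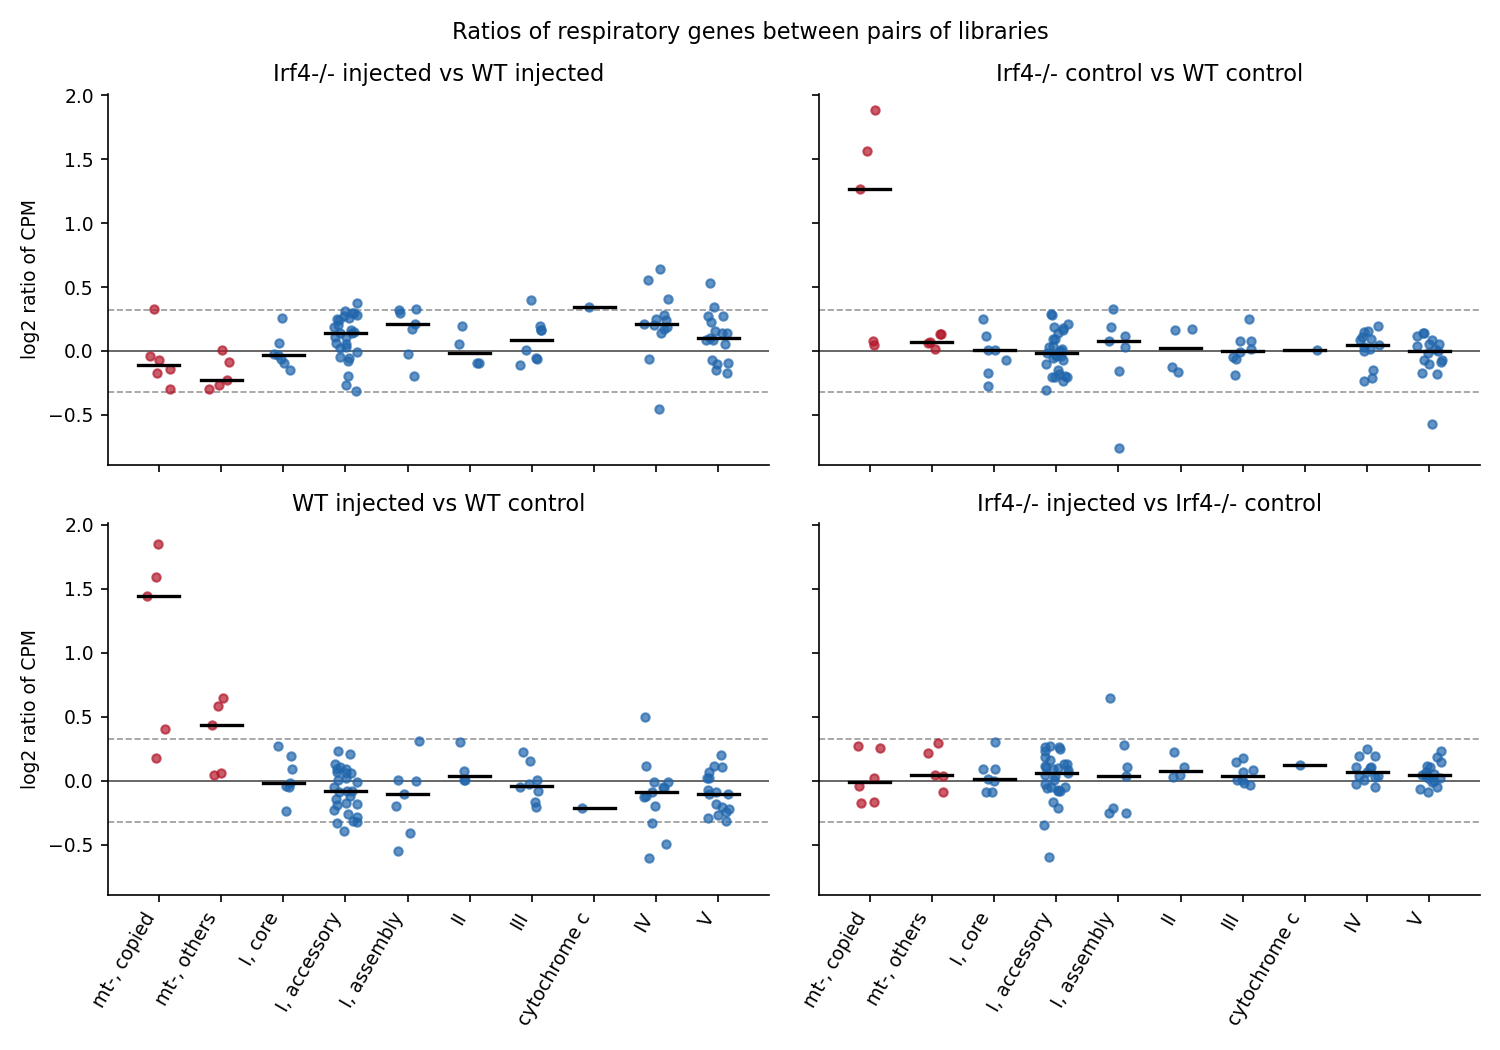
Log2 ratios of CPM in the 4 pairs of libraries (1 panel each) for members at 5 CPM or more in the pair, by genome and complex, with 1 point per gene and a bar at the median. Dashed lines mark 0.32 in either direction; the points above 1 are mt-Co2, mt-Co3 and mt-Atp6 in both comparisons with WT control.

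Among the complexes, complex I is the entry point for electrons from NADH. Its 7 nuclear core subunits, which carry the flavin and the iron-sulfur clusters, had medians between -0.03 and 0.01 in the 4 pairs. The 29 accessory subunits around that core had a median of 0.14 for the library labelled Irf4-/- injected against WT injected and -0.08 for WT injected against WT control. Ndufa9, an accessory subunit near the quinone site, had 57.0 and 48.1 CPM in the libraries labelled Irf4-/- injected and Irf4-/- control, against 44.1 and 55.4 CPM in WT injected and WT control. It was therefore highest in the library labelled Irf4-/- injected and lowest in WT injected, with a ratio of 0.37 (0.24 to 0.51) between them. The iron-sulfur core subunit gene Ndufs8 had 45.1 and 36.5 CPM against 37.6 and 44.3 CPM in the same order, so that both genotypes differed in opposite directions on injection. Ndufb5, an accessory membrane-arm subunit, was lower in the library labelled Irf4-/- injected, with 20.4 CPM against 26.0, 25.4 and 23.6 CPM in the library labelled Irf4-/- control, WT injected and WT control. Ndufb2, a small membrane-arm subunit, had 4.29 and 6.54 CPM in the libraries labelled Irf4-/- injected and Irf4-/- control, against 4.64 and 5.34 CPM in WT injected and WT control, with a ratio of -0.59 (-1.05 to -0.17) within the Irf4-/- label. Ndufa6, an accessory subunit of the LYR family, was higher in WT injected, with 58.8 and 52.7 CPM in the libraries labelled Irf4-/- injected and Irf4-/- control against 70.9 and 60.4 CPM in WT injected and WT control.

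Assembly factors build complex I without staying in it. Ndufaf8, a partner of Ndufaf5 in that process, had 15.4 and 9.80 CPM in the libraries labelled Irf4-/- injected and Irf4-/- control, against 12.5 and 16.7 CPM in WT injected and WT control. The library labelled Irf4-/- control was the lowest, with a ratio of -0.76 (-1.05 to -0.49) against WT control, and injection went with a ratio of 0.65 (0.36 to 0.94) in the libraries labelled Irf4-/- and -0.41 (-0.66 to -0.17) in WT. Ndufaf4 had 16.0 and 19.2 CPM in the libraries labelled Irf4-/- injected and Irf4-/- control, against 12.8 and 18.8 CPM in WT injected and WT control, so both injected libraries were lower than their control. Its injection effect in the additive model was -0.41 (SE 0.165, edgeR adjusted p 0.300).

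In complex II, which links the tricarboxylic acid cycle to the chain, no gene passed the 0.32 rule in any pair. Sdha, the flavoprotein, had the most transcript per length, with a mean over the libraries of 85.0 FPKM, and Sdhc, a membrane anchor, the least, at 17.9 FPKM. Sdhd, the other anchor, showed the largest ratio of the 4, 0.30 (0.19 to 0.42) for WT injected against WT control, with 71.0 and 57.5 CPM. Sdhb, the iron-sulfur subunit, was 0.20 (0.10 to 0.30) higher in the library labelled Irf4-/- injected than in WT injected. In complex III the nuclear means spanned 32.0 FPKM for Uqcrq, a small membrane subunit, to 118 FPKM for Uqcrh, the hinge protein. Uqcrb, a subunit near the quinone site, was the one complex III gene past the 0.32 rule. It had 26.5 and 26.9 CPM in the libraries labelled Irf4-/- injected and Irf4-/- control, against 20.1 and 22.6 CPM in WT injected and WT control, a ratio of 0.40 (0.20 to 0.60) in the injected pair. Cycs, the mobile electron carrier, had 62.9 and 57.9 CPM in those labelled Irf4-/- injected and Irf4-/- control, against 49.5 and 57.6 CPM in WT injected and WT control. WT injected was again the lowest, and the ratio in the injected pair was 0.35 (0.22 to 0.47).

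Complex IV is the one complex whose nuclear subunits have several tissue isoforms, and the common forms had by far the most transcript. On the per-length scale, means over the libraries were 322 FPKM for Cox6a1 and 11.1 for its muscle-type paralog Cox6a2, 175 for Cox4i1 and 0.158 for Cox4i2, 179 for Cox6b1 and 3.03 for Cox6b2, and 327 for Cox8a and 0.446 for Cox8b. Cox7a2 had 65.4 FPKM and the muscle form Cox7a1 had 3.35, and Cox7b had 67.1 FPKM while Cox7b2 was seen as 1 count in WT control. Cox5a stood at 34.7 and its partner Cox5b at 237 FPKM. The isoforms at or below 3.35 FPKM had too few counts for a comparison between libraries.

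Within complex IV, WT injected stood apart in several genes. Cox7a2l, a Cox7a relative that joins complexes III and IV in supercomplexes, had 137 CPM in the library labelled Irf4-/- injected and 119 CPM in that labelled Irf4-/- control, against 187 CPM in WT injected and 132 CPM in WT control. It was highest in WT injected, with a ratio of -0.45 (-0.53 to -0.38) for the library labelled Irf4-/- injected against WT injected and 0.50 (0.43 to 0.57) for WT injected against WT control. In the libraries labelled Irf4-/- it also stood 0.20 (0.11 to 0.28) higher after injection. Cox5a, a matrix-side structural subunit, differed in the opposite direction from Cox7a2l only where WT injected was compared. Within the Irf4-/- label it was also higher after injection, at 0.25 (0.06 to 0.45). It had 27.7 and 23.3 CPM in the libraries labelled Irf4-/- injected and Irf4-/- control, against 17.7 and 26.99 CPM in WT injected and WT control. WT injected was lowest, at -0.60 (-0.81 to -0.41) against WT control, and the library labelled Irf4-/- injected was 0.64 (0.44 to 0.85) higher than it. Cox6a1 had 225 and 210 CPM in the libraries labelled Irf4-/- injected and Irf4-/- control, against 169 and 194 CPM in WT injected and WT control. Cox6a2, at 8.15 and 7.79 CPM against 5.50 and 7.80 CPM, had WT injected lowest as well. Ndufa4, once assigned to complex I and now counted with complex IV, had 87.3 and 76.5 CPM against 71.7 and 90.2 CPM in the same order. Cox4i1, Cox5b, Cox7b, Cox7c and Cox8a stayed within a log2 ratio of 0.32 in all pairs.

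Complex V, the ATP synthase, had the most transcript per length of the 94 nuclear members after Cox8a and Cox6a1 in Atp5b, its catalytic beta subunit, at a mean of 278 FPKM. Atp5b had 532 and 566 CPM in the libraries labelled Irf4-/- injected and Irf4-/- control, against 484 and 551 CPM in WT injected and WT control. Atp5k, the small subunit e at the dimer interface, had 29.0 and 25.6 CPM in those labelled Irf4-/- injected and Irf4-/- control, against 20.1 and 23.2 CPM in WT injected and WT control, a ratio of 0.53 (0.34 to 0.73) in the injected pair. Atp5j, which encodes coupling factor F6, had a ratio of 0.34 (0.25 to 0.43) in the same pair. The gene overlaps Gabpa on the opposite strand, so its counts may hold reads of that gene. Atp5s, an associated factor that is not a core subunit, was lower in the library labelled Irf4-/- control, at 5.34 CPM against 7.99 CPM in WT control. The 3 genes for the membrane ring subunit c split, with ratios in the injected pair of 0.27 (0.13 to 0.42) for Atp5g1, -0.17 (-0.27 to -0.07) for Atp5g2 and 0.10 (0.02 to 0.18) for Atp5g3.

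**Figure D4:**
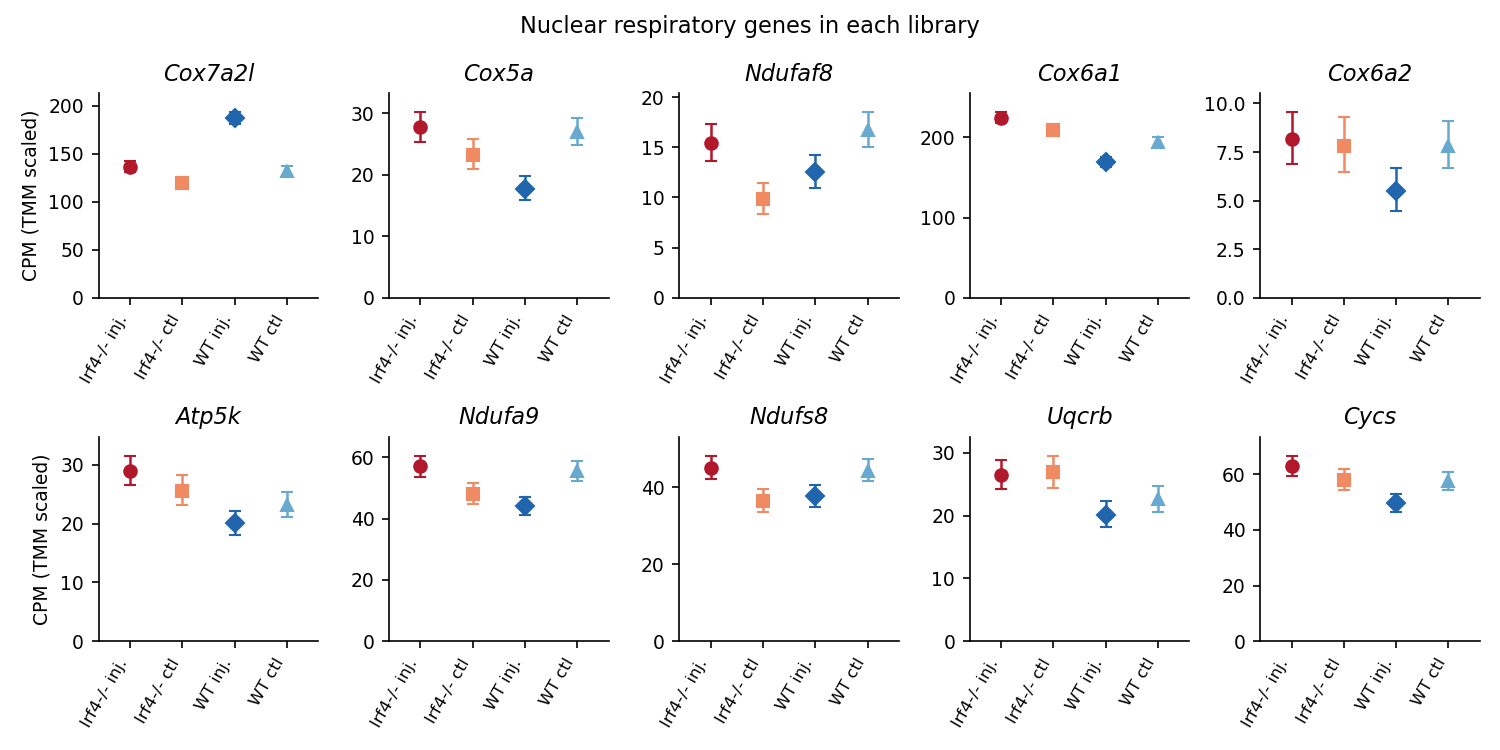
CPM of 10 nuclear respiratory genes in each library, on axes that start at 0, with exact 95% counting intervals. Cox7a2l is highest in WT injected at 187 CPM; Cox5a, Cox6a1, Cox6a2, Atp5k, Ndufa9, Uqcrb and Cycs are lowest there, and Ndufaf8 and Ndufs8 are lowest in the library labelled Irf4-/- control.

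The injection responses of both genotypes were set side by side for the 96 members that averaged 5 CPM or more. The response in the libraries labelled Irf4-/- was above that in WT for 61 members and below it for 35. How all genes split was not counted, so these counts do not show a lean particular to the members. The largest differences above were 1.06 for Ndufaf8, 0.85 for Cox5a, 0.58 for Ndufa9, 0.56 for Cox6a2 and 0.54 for Ndufs8 on the log2 scale. Those farthest below were -2.02 for mt-Co3, -1.61 for mt-Co2 and -1.34 for mt-Atp6, the copied genes, then -0.45 for Ndufb5 and -0.43 for mt-Nd5. With 1 library per group these differences could not be tested.

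Promoters are shown for nuclear members whose profiles differ most: Cox7a2l, high in WT injected, Cox5a, low there, and Ndufaf8, low in the library labelled Irf4-/- control. Each runs from 250 bases before to 50 after the gene start in RefSeq (GRCm38.p6). Both strands were searched for CCGGAAG, a site of GABPA, a known regulator of respiratory genes. Capitals mark a match. Of 94 nuclear members, 77 were matched to a promoter, and 18 of these (23.4%) held the motif, against 8.86% of all 32851 promoters. A member counted when any of its promoters held the motif, whereas the share over all promoters was taken per promoter. The windows lie at chr17:83514284-83514583 on the minus strand, chr9:57520982-57521281 on the plus strand and chr11:120098684-120098983 on the plus strand.
Cox7a2l: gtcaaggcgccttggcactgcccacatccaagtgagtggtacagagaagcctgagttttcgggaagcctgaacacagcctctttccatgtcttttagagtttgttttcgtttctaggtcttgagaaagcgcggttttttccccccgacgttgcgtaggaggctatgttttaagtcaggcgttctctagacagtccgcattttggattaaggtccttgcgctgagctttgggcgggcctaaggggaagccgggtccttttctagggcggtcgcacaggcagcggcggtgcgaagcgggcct
Cox5a: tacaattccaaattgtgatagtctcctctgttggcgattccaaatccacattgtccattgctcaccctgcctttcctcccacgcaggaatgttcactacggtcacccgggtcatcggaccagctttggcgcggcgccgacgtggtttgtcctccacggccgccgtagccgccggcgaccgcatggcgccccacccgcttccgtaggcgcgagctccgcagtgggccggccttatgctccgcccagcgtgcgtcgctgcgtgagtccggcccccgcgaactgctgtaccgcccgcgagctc
Ndufaf8: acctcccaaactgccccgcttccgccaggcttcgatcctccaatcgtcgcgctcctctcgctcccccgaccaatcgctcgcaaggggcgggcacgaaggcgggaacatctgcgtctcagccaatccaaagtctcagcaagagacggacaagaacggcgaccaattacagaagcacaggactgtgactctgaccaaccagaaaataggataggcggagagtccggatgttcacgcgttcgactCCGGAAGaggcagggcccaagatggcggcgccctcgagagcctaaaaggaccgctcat
CCGGAAG occurs at 1 place in the Ndufaf8 window. It does not occur in the Cox7a2l and Cox5a windows, which says nothing of GABPA itself.

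Genes that build, regulate or feed the chain were followed in 5 lists with no member in common with the symbols above. Of 39 further assembly factors, none passed the additive test, and 5 of 32 were higher and none lower in the library labelled Irf4-/- injected than in WT injected by the 0.32 rule, where 11.8% of all genes were higher and 10.6% lower. They were Pet100 and Coa3 of complex IV assembly and Timmdc1, Ecsit and Foxred1 of complex I assembly, with ratios of 0.34 to 0.69. For Timmdc1, WT injected was the lowest library, with 15.2 and 18.4 CPM in the libraries labelled Irf4-/- injected and Irf4-/- control, against 11.8 and 17.9 CPM in WT injected and WT control. Of 18 regulators of respiratory gene transcription, 17 were tested and 1 passed the additive test, for genotype. Over all genes 1.22% rose and 0.258% fell with genotype in that test. Bhlhe40, a transcriptional repressor, rose with the genotype label by 0.48 (SE 0.0990, edgeR adjusted p 0.0417), with 244 and 209 CPM in the libraries labelled Irf4-/- injected and Irf4-/- control, against 179 and 147 CPM in WT injected and WT control. Ppargc1a, the coactivator PGC-1 alpha of mitochondrial biogenesis, had 2.09 and 3.52 CPM against 6.85 and 4.11 CPM in the same order, with a genotype effect of -0.96 (SE 0.368, edgeR adjusted p 0.373). Its relative Pprc1 was lower in both injected libraries, at 38.4 and 34.7 CPM against 48.2 and 48.8 CPM in the libraries labelled Irf4-/- control and WT control.

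In the other lists none of the members passed the additive test. Of the 13 neighbours of the chain, Etfb, a subunit of the electron transfer flavoprotein, was higher under the Irf4-/- label in both pairs, with 103 and 123 CPM in the libraries labelled Irf4-/- injected and Irf4-/- control against 78.4 and 89.9 CPM in WT injected and WT control (genotype effect 0.42, SE 0.0934, edgeR adjusted p 0.0617). Of 23 genes that keep mitochondrial DNA and RNA, Polg, the DNA polymerase, had a genotype effect of -0.32 (SE 0.0930, edgeR adjusted p 0.182). The helicase gene Twnk and the nuclease gene Mgme1 were lower in WT injected than in WT control, at -0.48 and -0.37. Polg2, the accessory subunit of the mitochondrial DNA polymerase, was higher at 0.38 (0.14 to 0.63). By the 0.32 rule 1 of 20 was higher and 2 lower in that pair, where 12.9% and 12.7% of all genes were. Mgme1 was also lower on injection within the Irf4-/- label, at -0.45 (-0.69 to -0.22). Fastkd1 had 14.6 and 11.0 CPM in the libraries labelled Irf4-/- injected and Irf4-/- control, against 11.2 and 13.85 CPM in WT injected and WT control. Among the 14 tricarboxylic acid cycle genes, Idh2, the mitochondrial NADP-dependent isocitrate dehydrogenase, was the one past the 0.32 rule. Within the Irf4-/- label its injection ratio was -0.38 (-0.69 to -0.07), where 5.55% of all genes were lower by that rule. For the library labelled Irf4-/- injected against WT injected its ratio was -0.41 (-0.72 to -0.12), where 10.6% of all genes were lower. Median log2 ratios in that pair were 0.12 for the assembly factors, -0.02 for the regulators, -0.04 for the upkeep genes, -0.04 for the neighbours and -0.03 for the cycle, against 0.00 over all genes. For comparison, none of 85 cytosolic ribosomal protein genes passed the additive test after edgeR's adjustment. At an unadjusted p under 0.05, 36 of them were lower with the genotype label, and 20 were higher and 1 lower with injection. Of all 11998 genes, 724 were higher and 526 lower with genotype at that threshold, and 879 higher and 821 lower with injection.

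Gene length and overlap are shared features that the symbol rule did not use. In the injected pair the median log2 ratio was 0.16 over 43 nuclear members under 1000 bp and 0.06 over 42 members from 1000 bp, against 0.04 and 0.00 over all genes of those lengths. For WT injected against WT control it was -0.08 and -0.03 in these members, against -0.02 and 0.00 over all genes. Of the 107 members, 50 overlap another annotated gene, 35 of them one on the opposite strand, so that part of their counts may belong to the neighbour.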

How the data were processed

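The authors deposited raw read counts for each gene and FPKM values for 4 libraries. TopHat, edgeR and the build mm10 are named per the submitters' processing notes. The counting tool, annotation, strand setting and handling of reads with several places were not given in the sources used here. Every one of 72455 nonzero FPKM values equalled its count over the library total and a gene length that was whole to within 0.01 bp. Of 35275 gene identifiers 34490 matched the GENCODE annotation of GRCm38, and unmatched ones held 0.0871% to 0.0887% of counts. A second identifier with the symbol Atp5o is not used here.

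Library sizes were scaled with the TMM method of edgeR 4.0.16 (R 4.3.3), using genes that reached 1 CPM in 2 libraries or more. Pairwise log2 ratios used a prior count of 2 and exact (Clopper-Pearson) 95% counting intervals. Reads were not counted by molecule, so intervals and limits of 3 counts cover counting error only. The additive model was edgeR's two-sided quasi-likelihood test with 1 residual degree of freedom, a prior of 9.62 and a common dispersion of 0.00996. Both steps were also run on simulated counts with the common dispersion and known changes in 1 factor. Their outcome is not given here, and such counts cannot stand for the spread between these unreplicated libraries. DESeq2 1.42.0 and limma 3.58.1 were alternatives. Copied sequence was measured as the share of a transcript's 50-base windows found in another GENCODE transcript.

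The members and gene lists were chosen with earlier results of these data known. Genes were named by a rule: Irf4, the mt- genes, the nuclear members with the largest and smallest ratios, effects and differences of response, paralog groups of complexes IV and V, and the highest and lowest gene of a complex, some of them left out for length.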

Additional observations from a re-analysis of the deposited data

Results flagged for a closer look

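In 10 genes and in the nuclear sum, the injected library was above its control in one genotype and below it in the other, with both counting intervals excluding equality. The 10 genes are 10.4% of the 96 members with a mean of 5 CPM or more, where 636 of all 9674 such genes, or 6.57%, met the same rule. The rule sets no minimum ratio, so genes with many counts meet it at small ratios. Members and all genes were not matched for count depth, so these shares do not show an excess among members. With 1 library per group the difference between genotypes was not tested. In the following the log2 ratio in the libraries labelled Irf4-/- is given before that in WT. In complex I the ratios were 0.65 and -0.41 for the assembly factor gene Ndufaf8, 0.30 and -0.24 for the core subunit gene Ndufs8, 0.25 and -0.33 for Ndufa9 and 0.11 and -0.23 for Ndufb7, both accessory subunits. In complex IV they were 0.25 and -0.60 for Cox5a, 0.19 and -0.33 for Ndufa4 and 0.10 and -0.20 for Cox6a1, and in complex V 0.14 and -0.27 for Atp5j. All 8 nuclear genes were thus higher after injection under the Irf4-/- label and lower after it in WT. Of the 636 among all genes, 322 had this direction and 314 the reverse. Both mitochondrial genes went the other way, with -0.090 and 0.064 for mt-Cytb and -0.041 and 0.17 for mt-Nd4. The summed nuclear members were at 0.044 and -0.035.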

How the results depend on the processing

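No paired analysis was possible because each group had 1 library and the labels carry no replicate numbers. No summed ratio or difference whose counting interval excluded 0 reversed its direction. Counts of members were compared by size alone, and 0 against 0 was taken as unchanged. Of the 120 recomputed values, 94 stayed within their counting interval or within 1.5 times the count. Leaving out mt-Co1 and, where compared, Atp5b moved the mitochondrial sum to -0.17 for the library labelled Irf4-/- injected against WT injected and to 0.29 for WT injected against WT control, the nuclear sum of the WT pair to -0.022, and the mitochondrial minus nuclear difference to -0.24 and 0.31 in these pairs. Leaving out the 7 copied genes, chosen after seeing the data, gave sums of -0.17, 0.29 and, within the Irf4-/- label, 0.037, differences of -0.25 and 0.33, and 1 higher member against WT control for the library labelled Irf4-/- control and 4 for WT injected. Medians over members in place of sums gave differences of -0.28 and 0.56, and total-count scaling gave 0.33 for the WT sum. A minimum of 20 CPM left 0 higher and 0 lower members for the library labelled Irf4-/- control against WT control, 5 and 4 for WT injected against WT control, and 0 and 1 within the Irf4-/- label.

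In the additive model 2 members rose with genotype with no filter, and 5 rose with injection. TMM over all gene identifiers, added after seeing the data, gave 2 and 6, with Cox7a2l among the 6, where 299 genes rose and 146 fell with genotype and 299 rose and 292 fell with injection of 11998, against 146 and 31, and 40 and 47, in the model as reported. An adjusted p under 0.1 let through 1 with injection, mt-Nd6. The cause of these changes was not tested. A single residual degree of freedom and 1 library per group limit every value, and the assignment of reads to near-identical copies, which is not given, limits the copied genes. Low isoforms of complex IV were not measurable at this depth.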
